A study of Homo sapiens with 2 samples.

Results

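The immunoproteasome subunits and the proteasome activators are 8 genes whose products replace or cap parts of the proteasome. They were taken by name. PSMB8, PSMB9 and PSMB10 encode the inducible catalytic subunits, PSME1, PSME2, PSME3 and PSME4 encode activators, and PSMF1 encodes an inhibitor that binds the same ends of the core particle. An NRF1 peak was assigned to a gene when its centre lay within 20 kb of any annotated transcription start site (TSS) of that gene on hg19, or when the study's site list named the gene. By this rule 1 of the 8 genes, PSME4, had peaks, and it had 2 of the 5683 peaks. The study's list added no peak to those found by distance. Of all 20162 protein-coding genes, 18.7% had a peak centre within 20 kb of a TSS.

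The peaks come from 1 NRF1 ChIP-seq library of HCT116 cells, a human colorectal cancer line, kept for 16 h in MG132 at 1 µM. MG132 is a peptide aldehyde that blocks the proteasome, and the matching input library was not used here. No untreated cells were among the samples analysed, so that every value describes cells under proteasome inhibition. The peak caller turned the p-value of each peak into a score on a scale of minus 10 times its log10. The list starts at a score of 50 and its median is 91.86. With 1 library there is no replicate error, the read depth is unknown, and no difference between peaks was tested.

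The proteasome core is a barrel of alpha and beta rings, and 3 of its beta subunits cut peptide bonds. In cells exposed to interferon gamma these constitutive subunits, PSMB5, PSMB6 and PSMB7, are replaced in new particles by PSMB8, PSMB9 and PSMB10, which favour peptides that MHC class I molecules can present. PSME1 and PSME2 form the interferon-inducible activator ring of the same system, PSME3 forms a related ring in the nucleus, and PSME4 is a large single-chain activator. NRF1 (NFE2L1) is a transcription factor that reaches the nucleus when the proteasome fails. With small MAF partners it binds the antioxidant response element (ARE), written by the study as TGACNNNGC or TGAGNNNGC, and it is known for raising the genes of the constitutive proteasome.

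PSMB8 and PSMB9 lie next to each other in the MHC class II region of chromosome 6, with 10145 bp between their reference starts. Neither had a peak within 20 kb. PSMB8 runs on the minus strand from 32808494 to 32812456, and PSMB9 on the plus strand from 32811913 to 32827628 over all of its transcripts. The closest peak was the same for both, from 32787500 to 32787893, with a score of 136.68 (rank 1658). Its centre was 24016 bp from the closest start of PSMB8 and 24217 bp from that of PSMB9, and thus just outside the window. Counted from the reference start of PSMB9 the distance was 34273 bp. The centre lay in an intron of HLA-DOB, a gene of MHC class II peptide loading, 547 bp downstream of a start of that gene. As the site nearest to both genes, its central ARE is shown with 10 bases on each side, minus strand, 9 bp from the peak centre, with the match in capitals.
HLA-DOB intron, chr6:32787683-32787691: ctcttcatggTGACTCAGCtaattagact
It is the longer of the 2 forms, TGACTCAGC, and the peak held a short match too. In this stretch of chromosome 6, 6 peaks had their centres within 1 Mb of the reference start of either gene.

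PSMB10 lies on the minus strand of chromosome 16 from 67968409 to 67970767 and had no peak within 20 kb. The nearest was a peak from 67919300 to 67919626, 50235 bp away, at the start of NRN1L, with a score of 62.71 (rank 4492). It held TGACTCAGC, 51 bp from its centre. The 3 inducible genes thus had 0 peaks within 20 kb. Most protein-coding genes had none there either, since 18.7% had a peak centre at that distance. Each of their constitutive counterparts had 1 peak, centred within 21 bp of a start. PSMB7, which PSMB10 replaces, scored 614.43 (rank 75) at chr9:127177216-127177971. PSMB5, which PSMB8 replaces, scored 451.89 (rank 148) at chr14:23503466-23504726. PSMB6, which PSMB9 replaces, scored 296.08 (rank 427) at chr17:4699087-4699749. The plot of nearest peaks shows the distances for the 8 genes and these 3 counterparts.

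**Figure D1:**
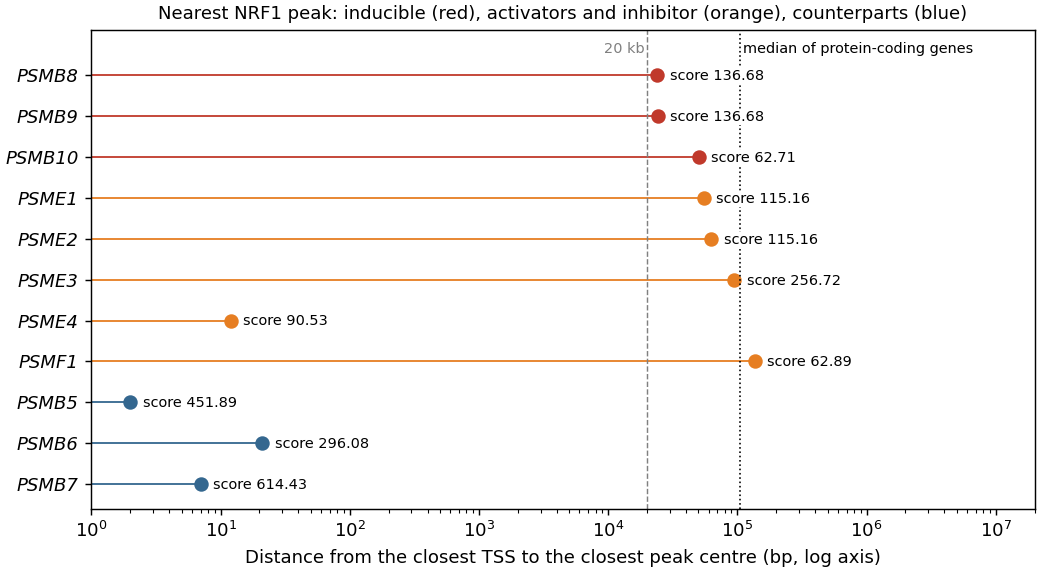
Distance in bp from the closest TSS to the closest NRF1 peak centre, on a log axis, for the inducible subunits (red), the activators and the inhibitor (orange) and the constitutive counterparts (blue), with the score of that peak. PSME4 and the 3 counterparts lie at 2 to 21 bp, while the other 7 genes lie between 24016 and 136086 bp, beyond the dashed line at 20 kb, and the dotted line marks the median of protein-coding genes (105.2 kb).

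PSME1 and PSME2, which encode the alpha and beta subunits of the interferon-inducible activator, lie on opposite strands of chromosome 14 with 10416 bp between their reference starts. PSME1 runs from 24605372 to 24608176 on the plus strand and PSME2 from 24612571 to 24616779 on the minus strand. Their nearest peak was again shared, from 24550032 to 24550589 in an exon of NRL, with a score of 115.16 (rank 2101). It was 55062 bp from PSME1 and 62851 bp from PSME2, and its ARE was of the short form. PSME3, on chromosome 17 from 40976402 to 40995777, was 94562 bp from the nearest peak, which had a score of 256.72 (rank 582) and held TGACTCAGC. AARSD1 had the start nearest to that peak, at 23031 bp. PSMF1, on chromosome 20 from 1093883 to 1170059, was the farthest of the 8 from any peak, at 136086 bp. That peak, with a score of 62.89 (rank 4470), lay in an intron of RSPO4 and held no ARE.

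Among all protein-coding genes the nearest peak centre was at a median of 105.2 kb, with quartiles at 32.4 and 270.5 kb. Of the 7 genes without a peak, 6 lay closer to one than that median, and PSMF1 lay farther. At PSMB8 20.9% of protein-coding genes had a closer peak, at PSMB10 32.8%, at PSME3 47.4% and at PSMF1 56.6%. Within 1 Mb of the reference starts of the 7 genes there were 4 to 13 peaks, against a median of 5 over protein-coding genes (quartiles 3 and 8). No undetermined base of hg19 lay within 20 kb of these starts. How uniquely reads map near them was not examined. A peak under a score of 50, a p-value of 1e-05, would not be in the list, so that binding below that level was not detectable here.

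PSME4, which encodes the activator used in the breakdown of acetylated histones, lies on the minus strand of chromosome 2 from 54091206 to 54198130. Its first peak ran from 54197941 to 54198344, 404 bp wide, and was centred 12 bp upstream of the reference start. It had a score of 90.53 (rank 2901), which is close to the median of the list. The second, 357 bp wide, ran from 54196403 to 54196759, and its centre was in intron 1, 1549 bp downstream of the reference start and 1334 bp from the closest annotated start. Its score was 71.12 (rank 3890). The 2 peaks were separated by 1181 bp from edge to edge, and each was narrower than the median peak of 501 bp.
The start of PSME4 is shared ground. ACYP2, which encodes an acylphosphatase, is transcribed in the other direction from 54198250, 120 bp from the start of PSME4. The centre of the first peak lay 108 bp upstream of that start and inside an exon of a longer ACYP2 transcript. PSME4 had the nearest annotated start for each of the 2 peaks, but the list cannot tell which of the 2 genes the first peak belongs to.

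**Figure D2:**
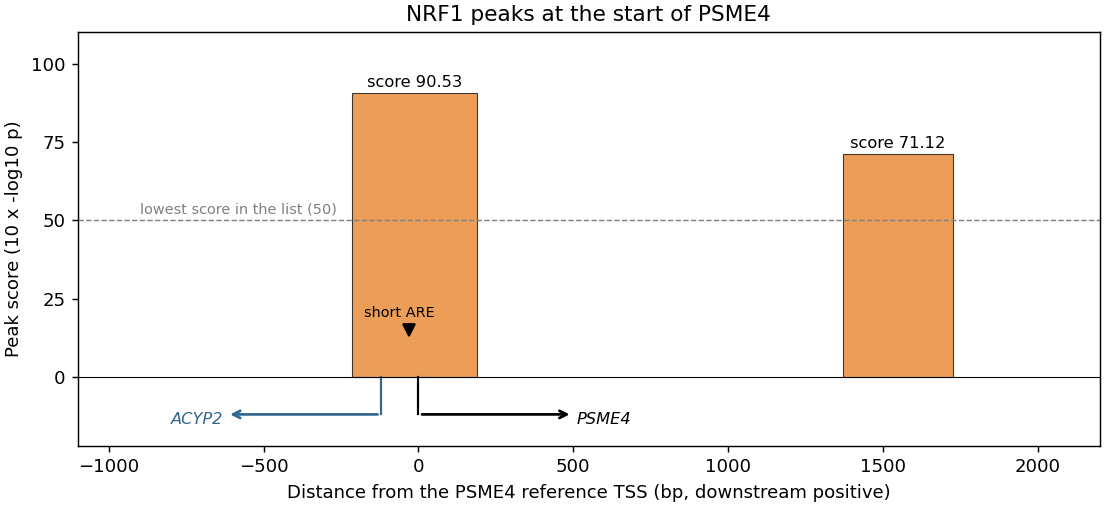
Peaks at the start of PSME4, with the distance in bp from its reference TSS on the x axis and the peak score on the y axis. Bars span the called peaks (scores 90.53 and 71.12), arrows mark the reference starts of PSME4 and ACYP2 and their direction, the triangle marks the only ARE match inside a peak, and the dashed line is the lowest score in the list.

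A single ARE stood in the first PSME4 peak and none in the second. Of all peaks on assembled chromosomes without undetermined bases, 87.4% held a match and 61.3% held the longer form, TGACTCAGC or TGAGTCAGC. The match at PSME4, TGACGCTGC, does not have the TCA of the longer form. Its middle base lay 30 bp upstream of the reference start and 18 bp from the peak centre. The matches of the 2 counterparts that had one at the start are set beside it. Each is on the plus strand with 10 bases on each side and the match in capitals. The TGA and GC ends are set by the search, and only the letters between them can differ. The PSMB5 peak held 3 matches, and the one closest to its centre is shown.
PSME4, chr2:54198156-54198164: gctctgctggTGACGCTGCagccgccggg
PSMB5, chr14:23504119-23504127: gaactaattcTGAGAACGCctagcaaaga
PSMB6, chr17:4699440-4699448: ccaaagagcgTGACAGAGCgctttacgac
The PSMB5 match lay 27 bp and the PSMB6 match 26 bp from the centre of its peak. The peak of PSMB7, the strongest of the 3, held no match in its 756 bp. None of these 4 peaks held the longer form.

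The 33 genes of the constitutive core and regulatory particle were taken as the comparison, counted by a peak centre within 2 kb of a TSS. All 33 had one, against 1 of the 8 immunoproteasome and activator genes and 6.03% of protein-coding genes. The highest score per gene had a median of 311.38 over the 33 and ran from 90.61 at PSMA2, an alpha ring subunit, to 1128.13 at PSMD14, the deubiquitinase of the lid. The PSME4 score of 90.53 thus lay just under that of PSMA2. The widths of those peaks, 508 to 1585 bp, were all above the 404 bp of PSME4. Of the alpha ring, PSMA1 had the highest score (681.29), and of the constitutive beta ring PSMB7 had the highest and PSMB3 the lowest (223.26). The ATPases ran from 144.19 at PSMC4 to 412.41 at PSMC3, and the lowest of the other regulatory particle subunits was PSMD13 (119.94).
Genes that help to build the proteasome fell between these sets, with a peak at 4 of 9. POMP, the maturation factor of the core, had the highest score (224.9) and PSMG3 the lowest (59.16). PAAF1 and PSMD9 had a peak, and PSMG1, PSMG2, PSMG4, PSMD5 and PSMD10 had none. The PAAF1 peak, with a score of 97.09, lay 1926 bp from the closest start and 3704 bp from the reference start. PAAF1 and PSMG3 both scored under 100, so that the count of 4 depends on the settings. With 1 library no test of these differences was made. At a score of at least 100 the PSME4 peaks dropped out and 0 of the 8 genes had a peak, while 32 of the 33 constitutive genes kept one.

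**Figure D3:**
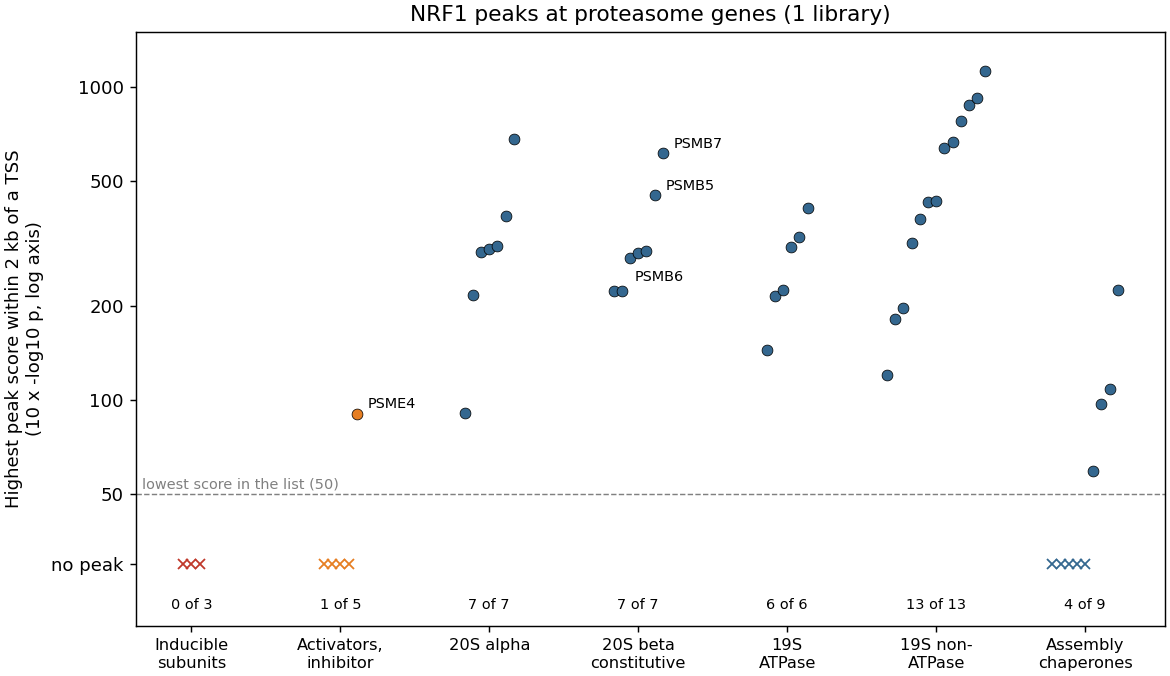
Highest NRF1 peak score within 2 kb of a TSS for each gene, on a log axis, with genes grouped by their role and crosses for genes without a peak, the number with a peak being given under each group. The inducible subunits have 0 of 3 and the activators and inhibitor 1 of 5 (PSME4, 90.53), while the 4 groups of constitutive subunits have a peak at every gene.

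The sequence around the reference starts was searched for the ARE on both strands, with matches allowed to overlap. The longer form was found within 2 kb of the start at 0 of the 8 genes, at 8 of the 33 constitutive genes and at 7.3% of protein-coding genes. Of the protein-coding genes that hold it there, 19% had a peak centre within 2 kb of a TSS. The short form was found within 2 kb at all 8 genes, with 1 to 7 matches each, but also at 96.7% of protein-coding genes. In the 300 bases from 250 upstream to 50 downstream of the start, it was found at 4 of the 8 genes (PSMB9, PSME1, PSME2 and PSME4), at 16 of the 33 and at 30.9% of protein-coding genes. The longer form was in 0 of the 8, 0 of the 33 and 0.739% of these promoters. PSMB9, PSME1 and PSME2 therefore held letters that match the study's consensus near the start and had no peak there, and PSMB7 had a peak with no match. A match without a peak is the usual case. The short form was in 6232 protein-coding promoters, while 1215 protein-coding genes had a peak centre within 2 kb of a TSS.

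PSMB10 and its counterpart PSMB7 are shown as a pair, 1 without and 1 with a peak, by the 250 bases before each reference start, 5′ to 3′ in the direction of the gene. Capitals mark matches to the short ARE or to GAAANNGAAA, a repeat that interferon regulatory factors are known to read.
PSMB10, chr16:67970754-67971003, minus strand: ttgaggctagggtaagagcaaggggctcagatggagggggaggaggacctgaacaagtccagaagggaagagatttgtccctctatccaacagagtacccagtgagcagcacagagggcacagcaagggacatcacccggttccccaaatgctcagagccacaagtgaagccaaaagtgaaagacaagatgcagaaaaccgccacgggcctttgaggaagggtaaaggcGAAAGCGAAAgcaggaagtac
PSMB7, chr9:127177722-127177971, minus strand: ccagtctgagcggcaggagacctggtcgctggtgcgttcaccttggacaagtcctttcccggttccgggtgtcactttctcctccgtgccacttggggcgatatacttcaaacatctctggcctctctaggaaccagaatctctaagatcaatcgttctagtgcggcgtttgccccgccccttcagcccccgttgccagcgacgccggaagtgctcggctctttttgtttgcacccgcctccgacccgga
The PSMB7 stretch lay wholly inside its peak. Neither stretch held an ARE, and the peak of PSMB7 was centred 128 bp downstream of its reference start. PSMB10 held the repeat at 21 bp upstream of the start and PSMB7 did not. The other pairs looked different in their promoters. PSMB9 and PSMB6 each held a short ARE and no repeat. PSMB8 held the repeat and no ARE, and PSMB5 held a short ARE and no repeat.

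The repeat was searched for after the sequences of the 8 starts had been read, so that its counts describe these genes and are not a test. In the same 300 bases it was found at PSMB8, PSMB10, PSME1 and PSME2, which is 4 of the 8 genes. It was also found at 1 of the 33 constitutive genes (PSMB4) and at 3.31% of protein-coding genes. Genes of antigen processing held it at 8 of 12, and genes that help to build the proteasome at 1 of 9, so that it is not particular to the 8 genes. At PSMB8, PSMB10, PSME1 and PSME2 the 10 bases were the same, GAAAGCGAAA. These 10 bases were held by 33 of the 20162 protein-coding promoters (0.164%), these 4 included, and by 0 of the 33 constitutive genes. Of the 12 antigen processing genes 3 held them, and of the 9 genes that help to build the proteasome 1 did. The GC spacer was picked because these promoters held it most often, so that its shares are not a test either. PSMB9 held the same 10 bases outside that window, 369 bp upstream of its start, with a variant, GAAATCGAAA, that overlaps it, and again 380 bp downstream in intron 1. Within 2 kb of the start 5 of the 8 genes thus held GAAAGCGAAA, against 0.694% of protein-coding genes. The repeat with any spacer was there at 6 of the 8, against 42%. The upstream copy lay 119 bases before the start of TAP1, which encodes a peptide transporter and is read in the other direction, 488 bp from the start of PSMB9. PSME3, PSME4 and PSMF1 did not hold those 10 bases. The 5 sites are shown because the genes known to answer interferon share them, with 10 bases on each side, on the strand that reads GAAA, and with the repeat in capitals.
PSMB8, chr6:32811819-32811828, plus strand, exon 1: aggaggaagtGAAAGCGAAAgccacagatc
PSMB9, chr6:32821600-32821609, plus strand, upstream: ccatttagggGAAAGCGAAAtcgaaagcgg
PSMB10, chr16:67970765-67970774, minus strand, upstream: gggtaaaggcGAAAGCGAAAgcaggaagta
PSME1, chr14:24605408-24605417, minus strand, exon 1: accgcgaaggGAAAGCGAAAgcggtagggc
PSME2, chr14:24615838-24615847, minus strand, upstream: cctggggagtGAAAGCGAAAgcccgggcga
In PSMB8, PSMB10, PSME1 and PSME2 the repeat lay within 28 bp of the reference start. The letters were read from the reference genome, and binding of any other factor was not analysed here.

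**Figure D4:**
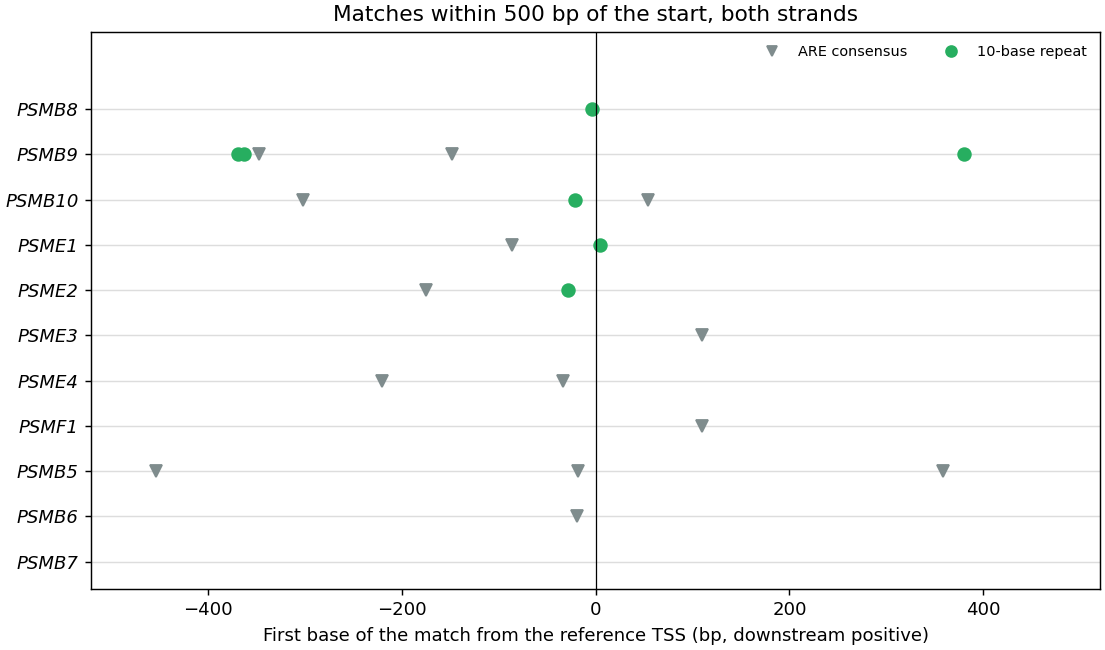
Matches within 500 bp of the reference TSS on both strands, with the first base of the match in bp from the TSS on the x axis and 1 gene per line. Triangles mark the short ARE and circles the 10-base GAAA repeat, which lies at or near the start of PSMB8, PSMB10, PSME1 and PSME2 and upstream of PSMB9, but not at PSME3, PSME4, PSMF1 or the counterparts PSMB5, PSMB6 and PSMB7.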

How the data were processed

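NRF1 ChIP DNA of HCT116 cells was sequenced by the authors as single-end reads, mapped to hg19 with Bowtie2 2.2.6, and peaks were called with MACS 1.4.2. The authors deposited the interval and score of each peak. The settings, the treatment of duplicates and the control library are not given in the sources used here, and the input library and the expression arrays were not used. Starts were shifted to count from 1. The deposited peaks were set against TSSs, exons and sequence of GENCODE on the same build. A reference TSS is that of the canonical transcript. A promoter is the stretch from 250 bases before to 50 after it. Shares of genes and peaks have 95% Wilson intervals that cover counting error only. With 1 library no test was run. The 8 genes and the comparison lists were chosen with earlier results of these data known. Genes were named by a rule, namely the 8 genes, the counterparts PSMB5, PSMB6 and PSMB7, the gene nearest to each peak, and in each list the extremes of the score and the genes without a peak. NRN1L, NRL, RSPO4 and HLA-DOB were named as the sites of the nearest peaks, and PSMB4 and TAP1 for the repeat, after their values were seen. PAAF1 and PSMD9 complete a count. Some genes of the antigen processing list are not reported here. The search for motifs and the distances were checked on simulated sequences and peaks. The alternatives were a score of at least 100, other windows, other sets of TSSs, distances from the edge, the longer ARE and the central 200 bp. Python 3.11.15, numpy 2.4.6, scipy 1.17.1, pysam 0.24.0 and matplotlib 3.10.9 were used.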

Additional observations from a re-analysis of the deposited data

How the results depend on the processing

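With a score of at least 100, the members with a peak within 20 kb or 2 kb, the peaks assigned to them and those with an ARE all fell to 0. PSME4 stayed the only gene of the 8 with a peak under distances from the edge, TSSs of protein-coding transcripts, the reference TSS alone, windows of 10, 5 and 1 kb, and peaks whose nearest protein-coding TSS is that of the gene. A window of 50 kb gave 3 genes, since it reaches the HLA-DOB peak from PSMB8 and PSMB9, and 2 peaks with an ARE. With the longer ARE form 0 of the 2 PSME4 peaks held a match. The share of protein-coding genes with a peak, 18.7% in the report, was 9.45% with a score of at least 100, 15.9% with TSSs of protein-coding transcripts, 13% with the reference TSS, 12.6% within 10 kb and 32.7% within 50 kb. The depth is unknown and 1 library was analysed, so that a missing peak says only that none reached a score of 50. No paired analysis was possible because each group has 1 sample and no result comes from a test.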

Other observations

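Some genes of antigen processing, which work with the immunoproteasome, had peaks at a distance. TAP2, the partner of TAP1, was reached by the HLA-DOB peak at 10808 bp, and NLRC5, an activator of MHC class I genes, by a peak with a score of 50.37 at 11942 bp, at the lower end of the list. TAP1, TAPBP, B2M, ERAP1, ERAP2, HLA-B, HLA-C and IRF1 had no peak within 20 kb.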
